A study of Saccharomyces cerevisiae with 48 samples.

Results

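The meiosis and sporulation genes described here are 40 budding yeast genes named for their parts in meiotic entry, recombination and spore formation. They were chosen by annotation, and each of the 40 had 1 probe set among the 5449 S. cerevisiae genes measured. Of the 40, 24 lay above and 16 under the level of the S. pombe probe sets, which are fission yeast sequences on the same array. That level is the 95th percentile of those probe sets, taken as what an array reads where no matching message is present, and with the 99th percentile in its place 9 members lay above. The members fall into 6 regulators, 16 recombination and chromosome genes and 18 spore formation genes.

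Messenger RNA was measured on 48 single-colour Affymetrix arrays, and all values are log2 of the deposited linear intensity. The 2 groups compared are both of the BF264-15DU background and mating type a. The cdc28-4 cells carry a temperature-sensitive allele of CDC28, the gene of the cell cycle kinase Cdk1, and are labelled as lacking Cdk activity at 37 °C. They were sampled in 2 courses, from 10 to 290 min (15 arrays) and from 10 to 350 min (18 arrays). The wild-type cells have normal CDC28 and the bar1 genotype, and were sampled in 1 course from 15 to 225 min (15 arrays). Both cultures grew in YEPD at 25 °C, small daughter cells were taken by elutriation, and time 0 is their move to YEPD at 37 °C. No sporulation medium is named in the labels.

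In budding yeast, meiosis is normally a programme of starved a/alpha diploids. Ime1 joins the DNA-binding protein Ume6 to switch on early genes of recombination and chromosome pairing, the kinase Ime2 acts beside it, and Ndt80 then switches on the middle genes of the meiotic divisions and spore formation. Haploid a cells in rich glucose medium hold the programme shut, with Ume6 acting as a repressor of early genes.

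The labels give mating type a. By their mean over all arrays, all 7 a-specific genes and all 4 alpha-specific genes lay above the S. pombe level. This mean joins the 2 strains. In wild type alone, MF(ALPHA)1 (6.95 to 7.57) and MF(ALPHA)2 (7.59 to 7.97) lay under that level on every array. STE3 ranged from 8.26 to 8.84 there, and SAG1 from 9.63 to 10.37. The a-specific genes other than BAR1 stood at 9.93 or higher in wild type. In cdc28-4, MF(ALPHA)1 ranged from 7.45 to 11.07. BAR1, the protease gene named in the wild-type genotype, lay between 10.99 and 12.88 in cdc28-4 and between 7.38 and 7.69 in wild type. The mRNA level of CDC28 cannot check a point allele. The S. pombe level was 8.08 to 8.58 on cdc28-4 arrays and 8.46 to 8.85 on wild-type arrays. The control transcripts have probe sets at both ends, and the median log2 excess of the 3′ end over the 5′ end, which follows RNA integrity and labelling, was 0.35 to 0.63 in cdc28-4 and 0.97 to 1.28 in wild type. Per the labels, different labelling kits were used, split by sample number in a way that, read in listing order, matches the strains. Differences in level between the strains, in the S. pombe level and in this excess can therefore not be told apart from the kit. At 170 min the 2 cdc28-4 courses stood further apart than at other times, with an SD over all genes of their difference of 0.315, against a median of 0.157 over the other shared times. For 7 of the 40 members the largest difference between the courses fell at 170 min. Those arrays enter the time effect and the estimate of the spread, but none of the contrasts between named times.

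The meiosis and sporulation genes sat low among yeast genes. Their mean level over all arrays had a median of 8.50, against 10.60 over all 5449 genes, and the highest member, SPS19, stood at percentile 34.4 of all genes. By this mean, 60% of the members exceeded the S. pombe level (8.40), against 95.2% of all genes. Members above it were 5 of 6 regulators, 9 of 16 recombination and chromosome genes and 10 of 18 spore formation genes. On single arrays judged each by its own level, 8 members exceeded it on all 48 arrays, 3 on none and 29 on some.

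The 8 members above the level on every array were SPS19, SPR6, UME6, IME1, RED1, REC104, SPO1 and SPO16. They hold the repressor and activator of early genes (UME6 and IME1), an axis protein of meiotic chromosomes (RED1), a factor for making DNA breaks (REC104) and a factor for pairing and crossovers (SPO16). SPS19 encodes a peroxisomal enzyme of fatty acid breakdown, and SPO1 a protein like phospholipases that is needed for sporulation. The 3 members above the level on no array were SPS4, MEK1 and SPS2. MEK1 encodes a kinase of meiotic recombination, and SPS2 a protein of the spore wall.

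Just above the level by their mean were SPS1 and SMK1, by 0.015 and 0.051, and just under it were SPR3 and SPO20, at -0.031 and -0.15 from it. The number of members above an array's own level was 20 to 30 in cdc28-4 course 1, 16 to 32 in course 2 and 14 to 22 in wild type. SPO11, which encodes the enzyme that cuts DNA to start recombination, averaged 8.21, under the level. NDT80, the activator of middle genes, lay between 8.11 and 8.62 in cdc28-4 and between 9.33 and 9.86 in wild type.

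**Figure D1:**
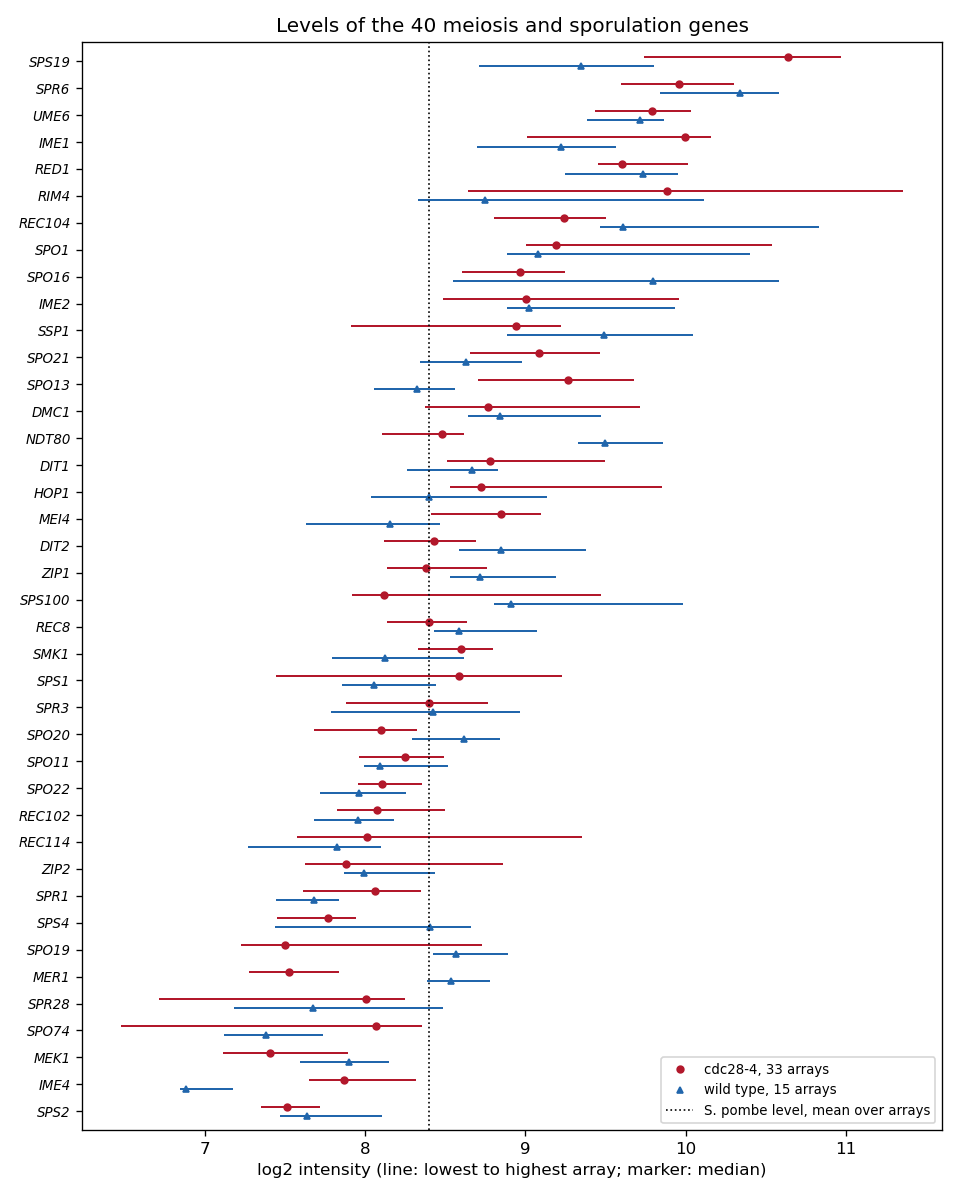
Log2 intensity of the 40 members, ordered by their mean over all arrays. Lines run from the lowest to the highest array and markers give the median, for cdc28-4 (33 arrays, upper line of each pair) and wild type (15 arrays, lower line). The dotted line is the mean S. pombe level of 8.40. RIM4 spans the widest range in cdc28-4 among the members above the level, and SPO16 in wild type.

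In cdc28-4 cells, 30 of 40 members changed with time over the 15 times that both courses share, by limma's F test with Benjamini-Hochberg adjustment over all genes. Among all genes the share called was 84.5%, so the members were called at no higher a rate (75%). Of the members above the S. pombe level, 20 of 24 passed. The highest F values were those of SPO1 (80.9), RIM4 (68.3), SPS1 (60.9), SPS19 (32.5), SPS100 (28.0) and HOP1 (22.7). UME6, SMK1, REC104 and SPO21 were the members above the level that did not pass. With the course as a block, UME6 (adjusted p = 0.0404), REC104 (0.00195) and SPO21 (0.0426) passed as well. REC104 and SPO21 also passed without the 170 min arrays, at adjusted p = 0.0335 and 0.0489. RED1 (adjusted p = 0.0485) and REC8 (0.0461) were called close to the threshold, and leaving out 1 of many single arrays ended either call, at adjusted p of up to 0.11 for RED1 and 0.12 for REC8.

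The first question is what happened in cdc28-4 after the move to 37 °C, taken as 90 min minus 10 min with 2 arrays at each time. Of the 40 members, 9 were called higher (40% of all genes were) and 15 lower (29.7% of all genes). The median change was -0.07 over the members and 0.08 over all genes. Among the 6 regulators, IME2 and RIM4 fell, and so did 8 of the 16 recombination and chromosome genes. Spore formation genes split, with 6 of 18 higher and 5 lower.

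IME2 encodes the kinase that drives the early steps of meiosis. It stood at 8.63 and 8.48 at 90 min, against 9.96 and 9.96 at 10 min, a change of -1.40 (SE 0.15, adjusted p = 6.69e-08), with 1 of the 2 arrays at 90 min above its S. pombe level. RIM4 encodes an RNA-binding protein that both promotes early expression and holds back translation of middle messages. It stood at 8.64 and 8.78 at 90 min, against 10.05 and 10.15 at 10 min, a change of -1.39 (SE 0.14, adjusted p = 2.21e-08). For both genes the 2 arrays at 90 min lay more than 1 log2 unit under those at 10 min. IME1 gave 10.03 and 9.68 at 90 min, against 9.77 and 9.84 at 10 min, and the groups overlapped (change 0.04, adjusted p = 0.669). At 30 min IME1 had its lowest values in both courses, 9.11 and 9.01, and with 30 min in place of 10 min the change was 0.79 and passed (adjusted p = 2.07e-07). UME6 gave a change of 0.31 that missed the threshold (adjusted p = 0.0514) and passed with the course as a block (adjusted p = 0.00596).

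Among the recombination and chromosome genes above the level, HOP1, which encodes an axis protein of meiotic chromosomes, fell furthest. It stood at 8.61 and 8.65 at 90 min, against 9.75 and 9.85 at 10 min (change -1.17, SE 0.09, adjusted p = 8.41e-10). DMC1, the meiotic strand-exchange enzyme, fell by 0.41 (adjusted p = 0.000875), and its highest arrays were those of 30 min, at 9.71 in both courses. The fall of RED1 by 0.36 (adjusted p = 0.0117) missed the threshold without course 2 at 10 min (adjusted p = 0.0587) or at 90 min (0.0636). SPO13, which encodes a regulator of the first meiotic division, changed by -0.29 (adjusted p = 0.0146), but against 30 min in place of 10 min the change was 0.32 (adjusted p = 0.011). SPO16, a partner of pairing proteins, rose to 9.17 and 9.25 at 90 min, against 8.62 and 8.70 at 10 min (change 0.55, SE 0.07, adjusted p = 1.02e-06).

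Among the spore formation genes above the level, SPO1 fell and SSP1 rose by the largest amounts. SPO1 stood at 9.14 and 9.19 at 90 min, against 10.54 and 10.36 at 10 min (change -1.29, SE 0.07, adjusted p = 1.89e-12). SSP1 encodes a protein at the leading edge of the growing spore membrane, and stood at 9.08 and 8.96 at 90 min, against 8.27 and 7.91 at 10 min (change 0.93, SE 0.09, adjusted p = 3.95e-08). Neither pair of groups overlapped. Of the 2 SSP1 arrays at 10 min, 1 lay above its S. pombe level, so the rise of SSP1 is partly against a value under it. SPS100, a spore wall protein gene, fell under the S. pombe level by 90 min, at least 1.44-fold lower than at 10 min (adjusted p = 7.29e-07). SPO21, which encodes part of the spindle pole plaque that seeds the spore membrane, rose by 0.43 (adjusted p = 0.00711), and without course 1 at 90 min it missed the threshold (adjusted p = 0.0724). SPS1 was under the level at both times. The smallest rises called, those of REC104 (0.31), MEI4 (0.22) and SPR6 (0.20), each missed the threshold under quantile normalization, at adjusted p = 0.286, 0.162 and 0.112. Without course 1 at 90 min, 4 members were called higher in place of 9.

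**Figure D2:**
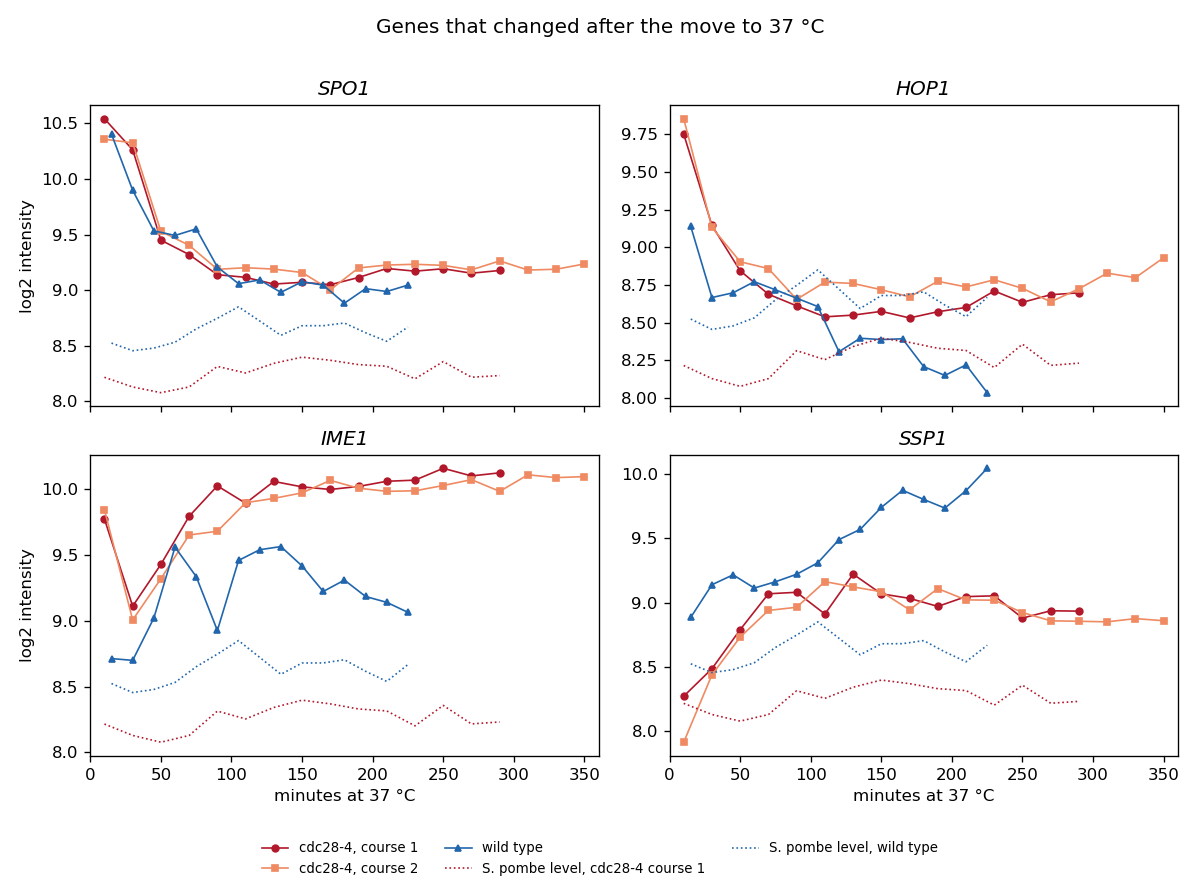
Log2 intensity of SPO1, HOP1, IME1 and SSP1 against minutes at 37 °C in cdc28-4 course 1, cdc28-4 course 2 and wild type, 1 array per point. Dotted lines are the S. pombe level of cdc28-4 course 1 and of wild type. SPO1 and HOP1 are highest at the first sample of each course, and IME1 has its lowest cdc28-4 values at 30 min.

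The next question is what changed late, when the cdc28-4 cells had been at 37 °C for over 4 hours. This was taken as the mean of 270 and 290 min minus the mean of 90 and 110 min, with 4 arrays in each window. Of the 40 members, 17 were called higher (27.2% of all genes were) and 4 lower (29.1% of all genes). The median change was 0.12 over the members and -0.02 over all genes. By role, 3 of 6 regulators, 5 of 16 recombination and chromosome genes and 9 of 18 spore formation genes were called higher. Of the 24 members above the S. pombe level, 10 were called higher and 3 lower. The number called higher was 11 without course 1 at 290 min.

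RIM4 rose most. It stood at 10.74, 10.91, 10.99 and 11.03 in the late window, against 8.64, 8.78, 8.65 and 8.84 in the early window. The change was 2.19 (SE 0.10, adjusted p = 1.07e-12), a 4.56-fold difference, and the windows did not overlap. It was 2.22 in course 1 and 2.16 in course 2. After 290 min, course 2 held RIM4 at 11.29, 11.27 and 11.36 at 310, 330 and 350 min, its highest values.

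SPS1 encodes a kinase needed for spore wall formation. In the late window it gave 9.15, 9.12, 9.10 and 9.10, against 8.08, 7.71, 8.32 and 8.27 in the early window (change 1.02, SE 0.07, adjusted p = 6.42e-10). Of its arrays in the early window, 2 of 4 lay above their S. pombe level, so the change there is partly against values under it. In course 1 SPS1 climbed at most steps to 9.15 at 270 min. IME2 gave 9.65, 9.18, 9.57 and 9.16 in the late window, against 8.63, 8.48, 8.66 and 8.71 in the early window (change 0.77, SE 0.11, adjusted p = 4.62e-06). The courses differed late for IME2, by 0.46 at 270 min, with a change of 0.97 in course 1 and 0.57 in course 2. SPS19 gave 10.90, 10.96, 10.89 and 10.82 in the late window, against 10.02, 10.29, 10.13 and 10.21 in the early window (change 0.73, SE 0.07, adjusted p = 1.27e-07). For SPS1, IME2 and SPS19 every late array lay above every early array.

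**Figure D3:**
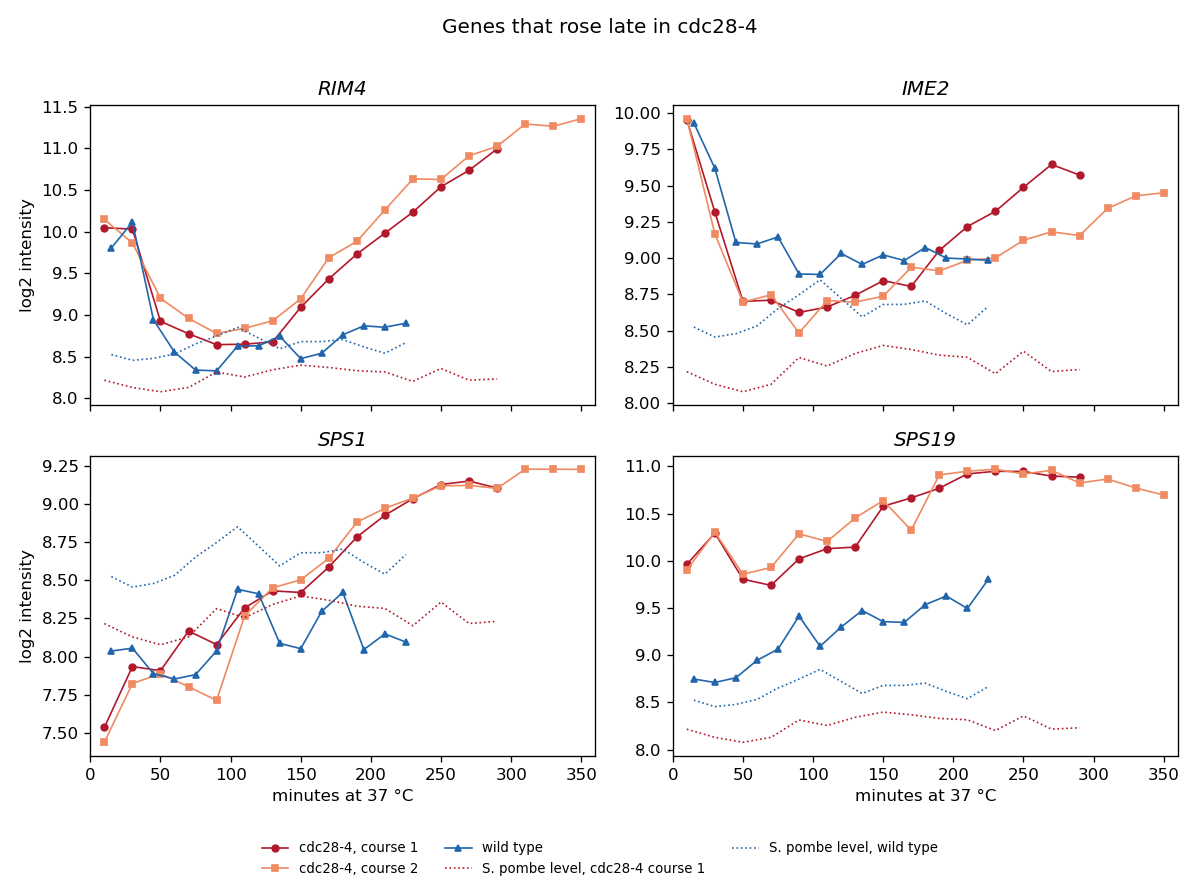
Log2 intensity of RIM4, IME2, SPS1 and SPS19 against minutes at 37 °C in cdc28-4 course 1, cdc28-4 course 2 and wild type, 1 array per point, with the S. pombe level of cdc28-4 course 1 and of wild type as dotted lines. All 4 genes stand higher at 270 and 290 min than at 90 and 110 min in both cdc28-4 courses, and wild type was followed to 225 min.

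The other late rises above the level were small. DIT2, which encodes an enzyme of the dityrosine layer of the spore wall, rose by 0.30 (SE 0.07, adjusted p = 0.00149), with 8.69, 8.50, 8.60 and 8.43 late, against 8.25, 8.27, 8.38 and 8.15 early, where 1 of 4 arrays lay above its level. RED1 (0.20), IME1 (0.20), MEI4 (0.18), DIT1 (0.18) and REC8 (0.16) were called, but each lost the call without 1 or another single array. Without course 1 at 290 min the adjusted p was 0.175 for RED1, 0.0655 for IME1, 0.0641 for MEI4, 0.0524 for DIT1 and 0.157 for REC8. DIT1 and DIT2 act in the same pathway and are neighbours on chromosome IV with no gene between them. NDT80 gave 0.10 (adjusted p = 0.115) and UME6 -0.03 (adjusted p = 0.805).

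The members that fell late above the level were SPR6, SPO16 and SPO13. SPR6, a gene first known for its expression in sporulation, fell by 0.33 (SE 0.06, adjusted p = 7.25e-05). SPO16 fell by 0.23 (SE 0.05, adjusted p = 0.000672), with windows that did not overlap. SPO13 fell by 0.21 (adjusted p = 0.0195), and without course 2 at 90 min the adjusted p was 0.13. SPO1 and HOP1, which had fallen early, stayed close to their early-window level, with changes of 0.03 (adjusted p = 0.574) and 0.04 (adjusted p = 0.591).

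Among the 16 members under the S. pombe level by their mean, 7 were called higher and 1 lower late. The septin gene SPR3 averaged 8.65 late and 8.16 early, above the level on 4 of 4 late and 1 of 4 early arrays. SPO74, a component of the meiotic spindle pole plaque, averaged 8.22 late and 7.61 early, above it on 2 of 4 late arrays and on 0 of 4 early ones. SPR28, another septin gene, averaged 8.15 late and 7.49 early and was under the level on all arrays of both windows, so these averages give no size of change.

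RNA quality moved little with the late window in course 1. The excess of the 3′ end in the control probe sets was 0.55 and 0.56 at 270 and 290 min, against 0.56 and 0.50 at 90 and 110 min. In course 2 it was 0.52 and 0.53 late, against 0.36 and 0.36 early. The changes of RIM4, SPS1, IME2 and SPS19 had the same sign in both courses. The part of RNA quality in these changes was not tested. On bulk arrays, more RNA per cell cannot be told apart from more cells that carry the message.

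The strains were compared by whether members changed alike in both, at 30, 90, 150 and 210 min, the times they share. A constant offset of strain or kit cancels here, and single wild-type arrays were assumed to vary like the cdc28-4 pairs. By the F test of interaction, 18 of 40 members passed, against 33.8% of all genes. Of the members above the S. pombe level 13 of 24 passed, and by role 2 of 6 regulators, 5 of 16 recombination and chromosome genes and 11 of 18 spore formation genes. The highest F values above the level were those of SPO16 (38.7), DIT1 (24.0), SPS1 (14.8), DIT2 (14.2), RIM4 (12.9) and REC104 (9.50). Being above the level is judged here by the mean over both strains. In wild type alone, SPS1, MEI4 and SMK1 exceeded their array's level on 0 of 15 arrays and SPO13 on 1. Their wild-type changes are therefore no measure of message. With the course as a block HOP1 (adjusted p = 0.0024), SPO13 (0.0234) and SMK1 (0.0241) passed as well.

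A difference of changes is one of measured intensities, and where arrays lie under their own S. pombe level it is no measure of message. For the change from 30 to 90 min, 5 of 40 members were called higher in cdc28-4 than in wild type (8.48% of all genes) and 10 lower (10.8% of all genes). The 5 called higher became 1 without course 1 at 90 min, 3 without course 1 at 30 min and 2 without course 2 at 30 min. The median difference of changes was -0.19 over the members and 0.02 over all genes. For the change from 30 to 210 min, 5 were called higher (11.9% of all genes) and 5 lower (14.9% of all genes). With the course as a block 8 were called lower over this span. Both spans share the 30 min arrays. The medians for 210 min were -0.03 over the members and -0.04 over all genes.

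Among the regulators, RIM4 differed most over the longer span. It changed by 0.17 from 30 to 210 min in cdc28-4 (9.98 and 10.26 at 210 min, 10.03 and 9.86 at 30 min), and by -1.26 in wild type (8.85 at 210 min, 10.12 at 30 min). The difference of changes was 1.44 (SE 0.24, adjusted p = 0.000208). From 30 to 90 min RIM4 changed by -1.24 in cdc28-4 and was at least 2.58-fold lower in wild type, where it was under the level at 90 min. The measured difference of 0.55 missed the threshold (adjusted p = 0.114) but passed with the course as a block (0.00982). IME1 gave a change of 0.96 in cdc28-4 and 0.44 in wild type from 30 to 210 min (difference 0.52, SE 0.15, adjusted p = 0.0166), and without course 2 at 30 min the adjusted p was 0.0505. From 30 to 90 min the changes of IME1 were 0.79 in cdc28-4 and 0.23 in wild type (difference 0.57, adjusted p = 0.0134). The wild-type array at 90 min (8.93) lay under its neighbours at 75 min (9.34) and 105 min (9.46). Without course 1 at 90 min the difference was 0.39 (adjusted p = 0.0522). IME2 changed by -0.14 in cdc28-4 and -0.63 in wild type from 30 to 210 min (difference 0.48, adjusted p = 0.174).

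**Figure D4:**
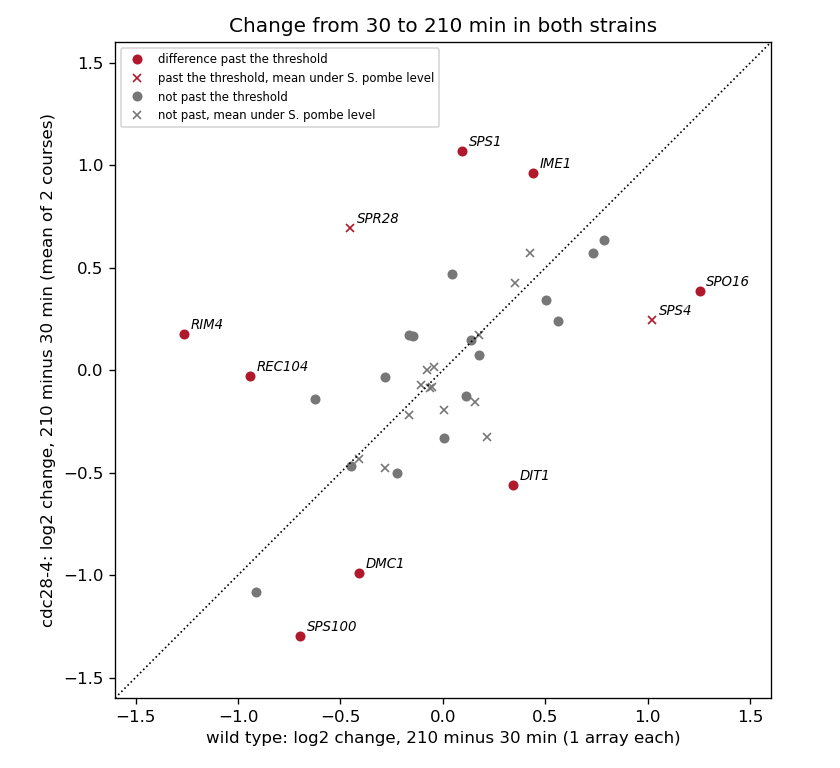
Log2 change from 30 to 210 min of the 40 members in cdc28-4 (vertical axis, mean of 2 courses) against wild type (horizontal axis, 1 array at each time). Red marks a difference of changes past the threshold, and crosses mark members whose mean lay under the S. pombe level. Points above the dotted line of equal change, such as RIM4, SPS1 and REC104, have a higher measured change in cdc28-4, and SPO16, DIT1 and SPS4 lie below it.

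Among the recombination and chromosome genes, SPO16 and REC104 differed in opposite directions. SPO16 changed by 0.57 in cdc28-4 from 30 to 90 min (9.17 and 9.25 at 90 min, 8.69 and 8.60 at 30 min), and by 1.73 in wild type (10.28 at 90 min, 8.55 at 30 min). The difference of changes was -1.16 (SE 0.12, adjusted p = 1.73e-06), and to 210 min it was -0.86 (SE 0.12, adjusted p = 5.36e-05). REC104 changed by 0.04 in cdc28-4 from 30 to 90 min (9.33 and 9.19 at 90 min, 9.31 and 9.14 at 30 min), and by -1.05 in wild type (9.47 at 90 min, 10.52 at 30 min). Here the difference was 1.09 (SE 0.23, adjusted p = 0.00233) to 90 min and 0.91 (adjusted p = 0.00645) to 210 min. DMC1 differed by -0.58 to 210 min (adjusted p = 0.0147), with changes of -0.99 in cdc28-4 and -0.41 in wild type, and without course 2 at 210 min the adjusted p was 0.0563. HOP1 differed by -0.50 to 90 min (adjusted p = 0.0324), with wild type under the level at 90 min, a call lost under quantile normalization (-0.26, adjusted p = 0.222) and without each of the 4 cdc28-4 arrays in turn. With the course as a block, DMC1 also passed to 90 min (-0.42, adjusted p = 0.0053). MEI4 to 90 min (adjusted p = 0.0221) and SPO13 to 210 min (0.0374) passed with the block as well, but both lay under the level in wild type at 30, 90 and 210 min, so no size is given for either.

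Among the spore formation genes, the neighbours DIT1 and DIT2 both differed from 30 to 90 min. DIT1 had a brief high value at 30 min in cdc28-4, with 9.33 and 9.50, while wild type gave 8.31. It changed by -0.87 in cdc28-4 (8.57 and 8.51 at 90 min) and by 0.46 in wild type (8.77 at 90 min), a difference of -1.33 (SE 0.17, adjusted p = 1.7e-05). Since DIT1 was under the level in wild type at 30 min, its wild-type change is known only as at least 1.25-fold higher at 90 min, and course 2 at 90 min was under the level too. DIT2 was under the level on both cdc28-4 arrays at 90 min, at least 1.18-fold lower than at 30 min, and changed by 0.64 in wild type. The measured difference of changes was -1.07 (SE 0.17, adjusted p = 0.000216). To 210 min the difference was -0.90 for DIT1 (adjusted p = 0.00074) and -0.24 for DIT2 (adjusted p = 0.34). SPS19 differed by -0.85 to 90 min (SE 0.18, adjusted p = 0.00262), with changes of -0.15 in cdc28-4 and 0.70 in wild type, and by -0.15 to 210 min (adjusted p = 0.592).

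SPS1 differed over the longer span. In cdc28-4 it gave 8.93 and 8.97 at 210 min, and 7.94 and 7.82 at 30 min, where both arrays lay under their S. pombe level, so that it was at least 1.70-fold higher at 210 min. In wild type it gave 8.15 at 210 min and 8.06 at 30 min, both under the level, and no change is given. The measured difference of changes, which rests on those values, was 0.98 (SE 0.17, adjusted p = 0.000409). SPS100 in cdc28-4 was under the level at 210 min, at least 1.96-fold lower than at 30 min, and changed by -0.70 in wild type. Its measured difference was -0.60 (adjusted p = 0.0184), and without course 1 at 30 min the difference was -0.44 (adjusted p = 0.0691). SPO1 differed by -0.44 to 90 min (adjusted p = 0.0114), and with arrays centred on the S. pombe median by -0.35 (adjusted p = 0.0954). SSP1 differed by 0.48 to 90 min (adjusted p = 0.0471), a call lost without course 1 at 90 min (0.42, adjusted p = 0.127).

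The level over the 4 shared times was compared as 3 course means, and carries the kit with it. Wild type has 1 course, so the spread in this test is that between the cdc28-4 courses, with none from wild-type cultures. Of the 40 members, 13 were called higher in cdc28-4 than in wild type (30.7% of all genes) and 15 lower (34.7% of all genes). The median difference was -0.03 over the members and over all genes. SPS19 had the largest higher level, 10.50 in cdc28-4 and 9.24 in wild type (difference 1.25, SE 0.08, adjusted p = 8.41e-05). SPO13 averaged 9.29 in cdc28-4 and lay under the S. pombe level on the 4 wild-type arrays, at least 1.61-fold higher in cdc28-4 (adjusted p = 0.000133). IME1 averaged 9.73 in cdc28-4 and 9.05 in wild type (difference 0.69, adjusted p = 0.000759).

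NDT80 was the member above the level with the largest lower value, 8.45 in cdc28-4 and 9.51 in wild type (difference -1.06, SE 0.08, adjusted p = 0.000114), with 5 of 8 cdc28-4 arrays above their level. SPS100 (-0.71), SPO16 (-0.69), SSP1 (-0.59), REC104 (-0.55) and DIT2 (-0.49) were lower as well. In cdc28-4, SPS100 lay under the level on both arrays at 90 min and at 210 min, and DIT2 on both at 90 min. The sizes of SPS100 and DIT2 therefore rest in part on values under it. DIT1 gave 0.26 (adjusted p = 0.0251), and without the 30 min arrays -0.02 (adjusted p = 0.847). The part of the labelling kit in these level differences cannot be told apart from that of the strain.

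**Figure D5:**
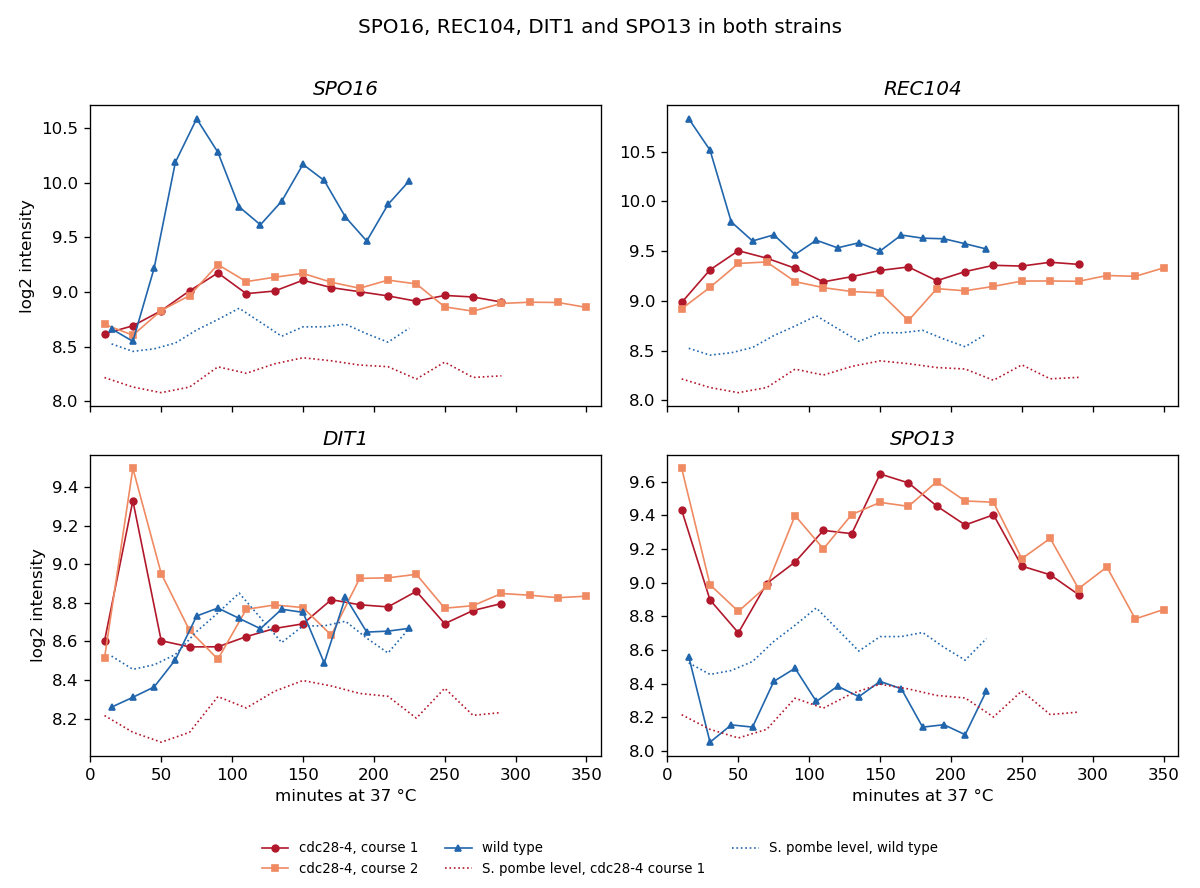
Log2 intensity of SPO16, REC104, DIT1 and SPO13 against minutes at 37 °C in cdc28-4 course 1, cdc28-4 course 2 and wild type, 1 array per point, with the S. pombe level of cdc28-4 course 1 and of wild type as dotted lines. SPO16 has peaks in wild type at 75 and 150 min, REC104 is highest in wild type at 15 min, DIT1 is highest in cdc28-4 at 30 min, and SPO13 lies under the wild-type S. pombe level on all but 1 wild-type array.

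Within the wild-type course, 26 of 40 members had a smooth time profile by limma's F test of a spline with 6 degrees of freedom, against 78.8% of all genes. Of the members above the S. pombe level by the mean over both strains, 18 of 24 passed. In wild type alone, MEI4, SMK1 and SPS1 exceeded their array's level on 0 of 15 arrays and SPO13 on 1. For those genes a wild-type profile is no measure of message. The highest F values were those of SSP1 (47.1), SPO1 (43.0), REC104 (36.1), SPS100 (27.4), SPO16 (25.0) and HOP1 (20.1). There was no replicate at any wild-type time, so the spread is the scatter about the curve.

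SSP1 rose over the course, with 8.89 at 15 min as its lowest and 10.05 at 225 min as its highest array. SPO16 had 10.58 at 75 min, 9.61 at 120 min, 10.17 at 150 min, 9.47 at 195 min and 10.02 at 225 min, so that it was high and low more than once. In cdc28-4 SPO16 ranged over 0.56 and 0.65 in courses 1 and 2, against 2.04 in wild type. REC104 fell over the first hour, with 10.83 at 15 min and 9.60 at 60 min, and then stayed between 9.47 and 9.66. SPO1 was highest at 15 min (10.40) and lowest at 180 min (8.88), and HOP1 was highest at 15 min (9.14) and lowest at 225 min (8.04). HOP1 exceeded its array's S. pombe level on 5 of 15 wild-type arrays, and its value at 225 min lay under the level of that array (8.67). Without the 15 and 30 min arrays REC104 (adjusted p = 0.266), IME2 (0.333), IME1 (0.252), SPS100 (0.0771), DMC1 (0.065), SPO13 (0.0553), SPR6 (0.175) and DIT1 (0.121) no longer passed.

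Other genes of the pathway were read from 3 lists, of which HED1 was not measured. Late in cdc28-4, 8 of 18 regulators of meiotic entry were called higher and 5 lower, with a median of 0.03. RME1, the repressor of IME1 in haploid cells, rose by 0.47 (9.75 late and 9.28 early), RIM15, a kinase of nutrient signalling, rose by 0.45 and RIM20, of the pathway that senses alkaline medium, rose by 0.42. ABF1 (-0.49), MCK1 (-0.42) and UME1 (-0.39) fell. Of 19 further early meiotic genes, 2 were called higher and 2 lower, with a median of -0.01, and HOP2, which helps pair chromosomes, rose by 0.60. Of 31 further middle and late sporulation genes, 16 were called higher and 2 lower, with a median of 0.21. Over all genes, 27.2% were called higher and 29.1% lower late, with a median of -0.02. IRC18 (1.18), LOH1 (0.78) and SPO75 (0.68) had the largest rises. LOH1 and SPO75 lay under the S. pombe level on both arrays at 90 min, so their sizes rest in part on values under it.

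From 10 to 90 min in cdc28-4, RME1 fell most of the entry regulators, to 9.26 at 90 min, against 11.59 at 10 min (change -2.32, adjusted p = 5.35e-12). That list had 3 of 18 members called higher and 8 lower. The further early list had 3 of 19 higher and 5 lower, with REC107, a factor for DNA breaks, at -1.06. Over all genes, 40% were called higher and 29.7% lower. The middle and late list had 10 of 31 higher, a smaller share than that, and 8 lower, led by SSP2 and RRT8 (-1.81). SSP2 lay under the S. pombe level on both 10 min arrays, and was at least 2.18-fold higher at 90 min.

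Between the strains, the change from 30 to 210 min was higher in cdc28-4 for 0 of 18 entry regulators and lower for 3. RME1 (-1.76, adjusted p = 1.57e-05) and UME1 (-0.54) were among the 3. Over all genes, 11.9% were called higher and 14.9% lower. In the further early list 2 of 19 were called higher and 3 lower. The middle and late list had 7 of 31 higher and 4 lower, with GAS2 at 1.09 and MIP6 at -1.06. In wild type MIP6 ranged from 7.46 to 9.75 with a median of 8.55, beside an S. pombe level of 8.46 to 8.85 there. The size for MIP6 may thus rest in part on values under that level.

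Markers of cell type moved as well. Late in cdc28-4, 3 of 4 alpha-specific genes were called higher, MF(ALPHA)1 by 1.07, SAG1 by 1.00 and STE3 by 0.43, while 1 of 7 a-specific genes was called higher and 4 lower, beside 27.2% and 29.1% of all genes. The measured change of MF(ALPHA)1 from 30 to 210 min differed between the strains by 3.31 (adjusted p = 7.03e-10). In wild type MF(ALPHA)1 lay under the S. pombe level on every array (6.95 to 7.57), so this size is not a measure of message. Late in cdc28-4, 4 of 9 haploid-specific genes, which a/alpha diploids keep silent, were called higher and 3 lower, with a median of -0.02. For the change from 30 to 210 min, 6 of the 9 were called lower in cdc28-4 than in wild type and 0 higher. The shares over all genes were 14.9% and 11.9%. Among the 6 were HO (-1.95), RME1 (-1.76) and GPA1 (-1.06). HO lay near the S. pombe level in cdc28-4, with medians of 8.35 and 8.44 in courses 1 and 2. The part of these markers in the changes of the meiosis and sporulation genes was not tested.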

How the data were processed

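The authors deposited a linear intensity for each of 10928 probe sets on every array, and the submitters' processing notes name affy. How affy was set to summarise and normalize is not stated in the labels. Values were taken to log2 with no added constant, since the deposited intensities were all above 1. Probe sets with 1 S. cerevisiae gene gave 5449 genes, and for 47 genes with several the brightest by mean was used. The S. pombe level is the 95th percentile of 1746 S. pombe probe sets, per array. A gene under it on all arrays of a group has only a bound there.

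One fit in limma 3.58.1 (R 4.3.3) had a mean for each of 33 combinations of strain and time, with 15 residual and 4.00 prior degrees of freedom. Tests were two-sided, with Benjamini-Hochberg adjustment over 5449 genes and a threshold of 0.05. In the fit of strain and time, p-values measure the spread between the 2 cdc28-4 courses. Levels were fitted on 3 course means, where the spread is again that between the cdc28-4 courses. Wild-type profiles were fitted on a natural spline, where p-values measure the scatter about the curve in a single course. The code was tested on simulated data.

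Replicate numbers mark the cdc28-4 course. The deviations of the courses correlated over genes with r of 0.01 to 0.90 between times (median 0.47), above 0.1 for 97 of 105 pairs of times, so the block was taken as a pairing. The main fit had no term for the course. Its counts and adjusted p-values are therefore unpaired unless the block is named. The lowest median r (0.09) was that of 170 min. Alternatives tried were quantile normalization, centring on the array or S. pombe median, the mean of a gene's probe sets, dim genes left out, a variance trend, the course block, other times, spline degrees and each array left out.

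The members and lists were chosen with earlier results of these data known. Full statistics go to members above the S. pombe level, up to the 6 largest rises and 6 largest falls, or the 6 highest F. Other lists name up to 3 per comparison and direction. Arrays hold no counts, and their number limits the precision. No promoter or protein sequence was used here.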

Additional observations from a re-analysis of the deposited data

Results flagged for a closer look

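Each result here is a difference between the strains in how a gene changed, tested as an interaction in limma. From 30 to 90 min the change in cdc28-4 exceeded that in wild type by 1.09 for REC104, 0.57 for IME1 and 0.48 for SSP1. Over the same span it fell short of wild type for DIT1 (-1.33), SPO16 (-1.16), DIT2 (-1.07), SPS19 (-0.85), HOP1 (-0.50) and SPO1 (-0.44). From 30 to 210 min the change in cdc28-4 was higher for RIM4 (1.44), SPS1 (0.98), REC104 (0.91) and IME1 (0.52). It was lower for DIT1 (-0.90), SPO16 (-0.86), SPS100 (-0.60) and DMC1 (-0.58). Both spans start from the same 30 min arrays. These are differences of measured intensities, and some rest on arrays under their S. pombe level. Those are the cdc28-4 arrays of SPS1 at 30 min, of DIT2 at 90 min and of SPS100 at 210 min, 1 of the 2 of DIT1 at 90 min, and the wild-type arrays of SPS1 at both times, of DIT1 at 30 min and of HOP1 at 90 min. For these genes the size is not a measure of message.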

How the results depend on the processing

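Of the values for the 24 members above the S. pombe level under all alternatives, 2737 kept direction and side of the threshold, 154 lost the call, 59 gained it and 2 reversed. SPO13 gave 0.318 with 30 min in place of 10 min, and DIT1 gave a level difference of -0.0164 without the 30 min arrays; the cause was not tested. Leaving out dim genes tests only those 24, and so gave 9 lower from 10 to 90 min, 10 higher late, 3 higher and 6 lower from 30 to 90 min, and 9 lower in level. Centring on the S. pombe median gave 6 lower from 30 to 90 min, and the variance trend 3 higher. With the course as a block, which pairs the arrays, 8 were lower from 30 to 210 min and no member above the level lost a call. Among these members it also added SPS100 from 30 to 90 min (adjusted p = 0.0159, cdc28-4 under the level at 90 min) and SPR6 from 30 to 210 min (-0.32, 0.0223), and beyond those and the ones given in the report it changed no other call. With each array left out in turn, counts ranged from 4 to 9 (higher, 10 to 90 min), 13 to 17 (lower), 11 to 18 (higher late) and 3 to 4 (lower late). They ranged from 27 to 33 (time effect), 15 to 18 (interaction), 1 to 4 and 8 to 10 (higher and lower, 30 to 90 min) and 4 to 5 (each way, 30 to 210 min). Against the 99th percentile of the S. pombe probe sets, 9 members were above, in place of 24. Wild type had 1 array per time.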

Other observations

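Members under the S. pombe level by their mean still held early changes in cdc28-4. From 10 to 90 min REC114, a factor for meiotic DNA breaks, was at least 1.51-fold lower (adjusted p = 0.00245), with 8.18 and 7.78 at 90 min, against 9.35 and 8.73 at 10 min. ZIP2, of the pairing proteins, was at least 1.30-fold lower (adjusted p = 8.14e-11), and SPO19, a membrane protein gene of spore formation, at least 1.11-fold lower (adjusted p = 1.33e-09). In each of the 3, both 90 min arrays lay under both 10 min arrays. REC114 also had the largest gap between the courses of any member, 0.73 at 230 min.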
